A study of Mus musculus with 14 samples.

Results

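Lysosomal gene expression in mouse small intestinal organoids was described through 36 genes, chosen by symbol from the function of their products. They comprised 6 lysosomal membrane proteins, 7 cathepsins and other peptidases, 10 glycosidases and sulfohydrolase, 7 lipid hydrolases, activators and carriers, and 6 subunits or accessory proteins of the V-ATPase. All 36 were present among the 18781 genes of the expression table. Genes were tested where their log2 values averaged 3.32 or more over the 14 libraries, which left 12804 genes and all 36 members.

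The organoids, crypt-derived epithelial cultures grown without treatment in Intesticult medium, were prepared to compare loss of *Rnaseh2b*, a subunit of the enzyme that removes ribonucleotides from DNA, loss of the autophagy gene *Atg16l1*, and loss of both. WT organoids carried the floxed alleles ATG16L1flox/flox_RNaseH2Bflox/flox and no Cre (n = 4). *Atg16l1*ΔIEC organoids were ATG16L1flox/flox_VillinCre+/- (n = 4), *Rnaseh2b*ΔIEC organoids were RNaseH2Bflox/flox_VillinCre+/- (n = 2), and *Atg16l1/Rnaseh2b*ΔIEC organoids, the double knockout, were ATG16L1flox/flox_RNaseH2Bflox/flox_VillinCre+/- (n = 4). Cre was driven by the villin promoter, which is active in the intestinal epithelium, and which ages supplied the organoids is not given in the sources used here, although the study used both young and aged mice. By the labels, each single knockout carried only its own floxed gene, whereas WT and the double knockout carried both. The authors left out 2 further *Rnaseh2b*ΔIEC samples because of a quality issue with their read counts.

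The targeted genes followed the labels. *Atg16l1* had log2 values of 9.43 to 9.54 in WT, 6.73 to 7.35 in *Atg16l1*ΔIEC, 9.52 and 9.53 in *Rnaseh2b*ΔIEC and 8.14 to 8.57 in double knockout libraries. *Rnaseh2b* had values of 8.41 to 8.70 in WT, 8.48 to 8.72 in *Atg16l1*ΔIEC, 7.15 and 7.21 in *Rnaseh2b*ΔIEC and 7.68 to 7.92 in double knockout libraries. Both genes were therefore lower in the double knockout than in WT, yet higher there than in the respective single knockout. Libraries 1 and 2 of a genotype, and likewise 3 and 4, behaved as pairs: the SD of their log2 differences was 0.0623 to 0.127 within the 7 pairs and 0.176 to 0.262 between pairs of the same genotype. By the *Xist* level both libraries of a pair were of 1 sex. WT 1 and 2, *Atg16l1*ΔIEC 3 and 4, *Rnaseh2b*ΔIEC 1 and 2 and double knockout 1 and 2 were XY, and the others XX. All WT libraries were in lane 1, both single knockouts in lane 2, and the double knockout had its XY pair in lane 2 and its XX pair in lane 1. No label says that the libraries of a pair came from separate animals, so p-values without the pairs in the fit may measure technical spread. Epithelial markers such as *Epcam* were high in every library (*Epcam* 14.64 to 14.76).

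Lysosomes are acidic organelles in which hydrolases degrade proteins, glycans and lipids delivered by endocytosis and autophagy. The V-ATPase pumps protons into the lumen, heavily glycosylated membrane proteins such as LAMP1 and LAMP2 line the limiting membrane, and cathepsins, glycosidases and lipases act inside. Many of these genes are co-regulated by TFEB and TFE3, transcription factors that bind a palindromic E-box element, and ATG16L1 is required to form the autophagosomes that fuse with lysosomes.

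The element was searched in the RefSeq promoters (GRCm38.p6, 250 bases before to 50 after the start), which held 32 promoters for 30 of the 36 members. The core TCACGTGA, whose reverse complement is itself, was present in 6 member promoters (18.8%) and in 0.974% of all 32851 promoters. The shorter E-box CACGTG, contained in the core, was present in 12 (37.5%) and in 7.15%, respectively. The sequences around the matches in the 6 genes with the core, and in *Lamp1*, which had the most E-boxes, are shown because the results below refer to them. Capitals mark the core or E-box, and all sequences run 5′ to 3′ on the strand of the gene.
Ctsa: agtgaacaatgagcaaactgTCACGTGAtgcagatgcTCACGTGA
Ctsd: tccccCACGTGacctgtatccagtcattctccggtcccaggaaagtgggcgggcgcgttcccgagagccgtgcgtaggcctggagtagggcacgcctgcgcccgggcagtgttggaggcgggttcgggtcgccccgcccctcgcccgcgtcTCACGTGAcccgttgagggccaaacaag
Gla: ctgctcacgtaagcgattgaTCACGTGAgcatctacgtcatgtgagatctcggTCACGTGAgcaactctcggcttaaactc
Mcoln1: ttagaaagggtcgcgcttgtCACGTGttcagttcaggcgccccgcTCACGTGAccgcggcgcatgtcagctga
Atp6v0d1: agagccaggccctactgcggTCACGTGA
Atp6v1a: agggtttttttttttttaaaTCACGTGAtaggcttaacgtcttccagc
Lamp1: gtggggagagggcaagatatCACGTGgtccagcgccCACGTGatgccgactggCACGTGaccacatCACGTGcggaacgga

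These stretches lie at chr2:164833740-164833784 (+) for *Ctsa*, chr7:142387899-142388077 (-) for *Ctsd*, chrX:134601173-134601253 (-) for *Gla*, chr8:3500428-3500500 (+) for *Mcoln1*, chr8:105566061-105566088 (-) for *Atp6v0d1*, chr16:44139364-44139411 (-) for *Atp6v1a* and chr8:13159080-13159160 (+) for *Lamp1*. The 4 E-boxes of *Lamp1* began 61, 45, 28 and 15 bases before its start, whereas the cores of *Gla* began 228 and 195 and that of *Atp6v1a* 132 bases before. A match is a run of letters and says nothing of binding in these cells. Of the 6 members with the core, *Ctsa* and *Ctsd* differed over the 4 genotypes in the test described below. Of the 12 members with an E-box 5 did so, and of the 18 members whose promoters held none 11 did so. Over all tested genes 45.8% did so, and a difference between these small sets was not tested.

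In WT organoids the members covered a wide range of levels. Levels were compared between genes after subtraction of the log2 exon length in kilobases. That length covers all annotated exons of a gene, whether or not they are used in these cells, so the order is approximate. *Lamp1* was the highest at 12.74 ± 0.07 (SD, n = 4), above 99.3% of the tested genes. It was followed by *Ctsz* (cathepsin Z, a carboxypeptidase) at 12.30 ± 0.10, *Psap* (prosaposin, the precursor of the saposin activators) at 12.16 ± 0.01 and *Ctsb* (cathepsin B) at 11.97 ± 0.14. The libraries of these 4 genes did not overlap with those of the next gene in the order. From *Ctsd* (11.08) through *Hexa* (11.02) and *Npc2* (10.90) to *Glb1* (10.81), neighbours in the order overlapped. At the low end stood *Mcoln1* (the lysosomal calcium channel TRPML1) at 7.05 ± 0.04, *Smpd1* (acid sphingomyelinase) at 6.96 ± 0.06, *Lipa* (acid lipase) at 6.66 ± 0.17, *Sgsh* (sulfamidase) at 6.61 ± 0.06 and *Npc1* (the cholesterol transporter of the membrane) at 6.11 ± 0.07. In all, 31 of 36 members lay above the median per-kilobase level of the tested genes, 7.19.

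Differences between genotypes were small. Over the 4 genotypes, 18 of 36 members passed the limma F test (adjusted p below 0.05), where 45.8% of all tested genes did, so the members' share was near that of genes in general. With the library pairs as a block, in limma with an estimated correlation, 6 members passed (*Atp6ap1*, *Ctsa*, *Ctsd*, *Ctsz*, *Hexa* and *Lipa*), where 8.68% of all genes did. Without *Rnaseh2b*ΔIEC library 2, 11 members passed. When each pair was averaged to 1 value, no member passed in limma in any comparison, while 6 of 36 had an unadjusted p below 0.05 over the 4 genotypes, as did 1934 of all 12804 genes, of which 0 passed. Relative to WT, 35 members differed in *Atg16l1*ΔIEC, 31 in *Rnaseh2b*ΔIEC and 33 in double knockout organoids by less than 0.25 on the log2 scale. Over all tested genes those shares were 89.9%, 81.5% and 90.6%, against 97.2%, 86.1% and 91.7% of the members. The median difference of the members was -0.04, 0.02 and -0.05, respectively.

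**Figure D1:**
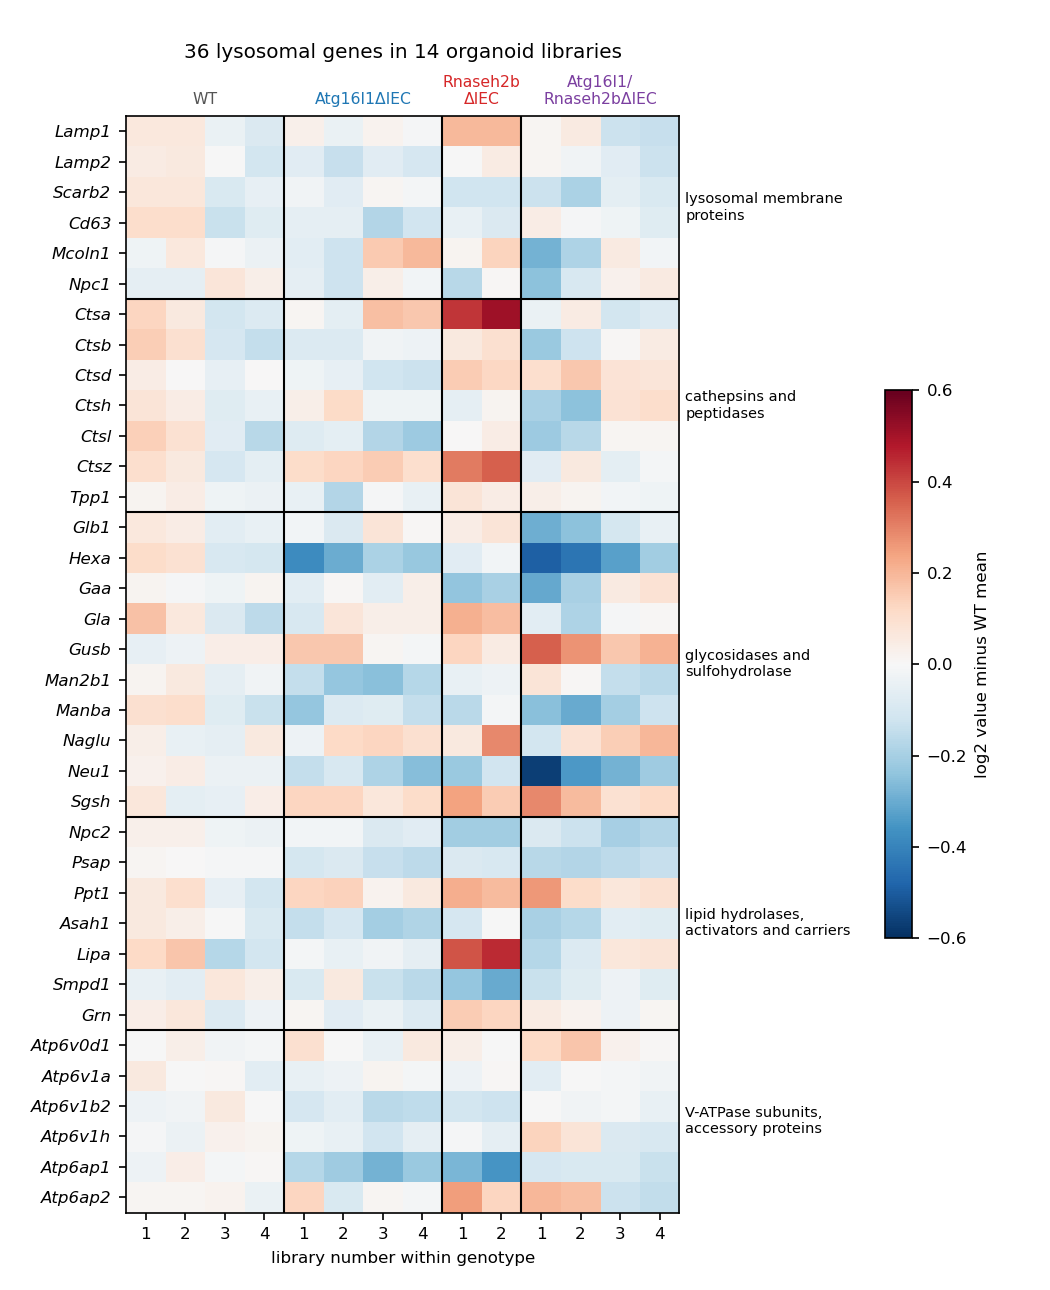
Log2 value of each of the 36 members (rows, by role) in each of the 14 libraries (columns, by genotype) minus the WT mean of that gene, with red higher and blue lower. The 2 *Rnaseh2b*ΔIEC libraries stand out for *Ctsa*, *Ctsz* and *Lipa*. *Hexa* is lower in both *Atg16l1*ΔIEC and the double knockout. *Neu1* is below WT in every knockout library, with the lowest mean in the double knockout, and *Gusb* is higher in the double knockout.

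In *Rnaseh2b*ΔIEC against WT organoids, 8 members rose and 5 fell, where 14.4% of the tested genes rose and 12.3% fell. The rises comprised *Ctsa*, *Ctsz* and *Ctsd* among the cathepsins, *Lipa*, *Ppt1* and *Grn* among the lipid genes, *Lamp1* and *Sgsh*. The falls comprised *Atp6ap1*, *Atp6v1b2*, *Smpd1*, *Npc2* and *Psap*. With the library pairs as a block, *Ctsa*, *Ctsz*, *Lipa*, *Npc2* and *Atp6ap1* passed, where 5.69% of all genes did. Scaling each library to the same total turned the split from 8 up and 5 down to 3 up and 7 down, and the called members were 4 without *Rnaseh2b*ΔIEC library 2, 6 without library 1, 7 without WT library 3 and 8 without WT library 4.

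In *Atg16l1*ΔIEC against WT organoids, no member rose and 6 fell: *Hexa*, *Atp6ap1*, *Man2b1*, *Asah1*, *Psap* and *Atp6v1b2*. The shares over all genes were 8.72% up and 10.4% down. Only *Atp6ap1* passed with the pairs as a block, where 3.0% of all genes did. Scaling to the same median added 1 rise to the 6 falls.

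In double knockout against WT organoids, 3 members rose (*Gusb*, *Sgsh* and *Ctsd*) and 7 fell (*Hexa*, *Neu1*, *Manba*, *Glb1*, *Psap*, *Npc2* and *Atp6ap1*), beside 8.1% of all genes up and 8.01% down. No V-ATPase gene other than *Atp6ap1* and no membrane protein gene passed. No member passed in limma with the pairs as a block, where 0.664% of all genes did. Without WT library 2, or without double knockout library 1 or 2, 5 members passed in place of 10.

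Against *Rnaseh2b*ΔIEC, the double knockout had 2 members higher (*Atp6ap1* and *Smpd1*) and 8 lower (*Ctsa*, *Lipa*, *Ctsz*, *Hexa*, *Gla*, *Lamp1*, *Glb1* and *Grn*), beside 11.1% and 14.4% of all genes. With the pairs as a block, *Ctsa*, *Ctsz* and *Lipa* passed, where 5.4% of all genes did. Without *Rnaseh2b*ΔIEC library 1 or 2, 4 and 2 members passed, and total scaling gave 5 higher and 6 lower. Against *Atg16l1*ΔIEC, 5 members were higher (*Ctsd*, *Gusb*, *Man2b1*, *Atp6ap1* and *Atp6v1b2*) and 4 lower (*Neu1*, *Glb1*, *Ctsz* and *Npc2*), beside 12.6% and 12.5% of all genes. *Ctsd* alone passed with the pairs as a block (3.73% of all genes), and total scaling gave 6 higher and 2 lower. The called members were 2, 3 and 5 without *Atg16l1*ΔIEC library 4, 3 or 2, and 3, 4 and 5 without double knockout library 1, 2 or 3.

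The effect of *Rnaseh2b* deletion was also compared between the *Atg16l1*-deficient and the *Atg16l1*-sufficient background, as the difference of both differences. It passed for 7 members, 3 upward (*Atp6ap1*, *Smpd1* and *Atp6v1b2*) and 4 downward (*Ctsa*, *Ctsz*, *Lipa* and *Lamp1*), beside 17% and 18.1% of all genes. With the pairs as a block *Atp6ap1*, *Ctsa* and *Ctsz* passed (12.1% of all genes), and without *Rnaseh2b*ΔIEC library 2, 4 members passed. Total scaling gave 5 upward and 3 downward calls. The comparisons share libraries, so their values are given side by side and are not independent. Both targeted genes were higher in the double knockout than in the respective single knockout, and the part of this in the interaction was not tested.

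**Figure D2:**
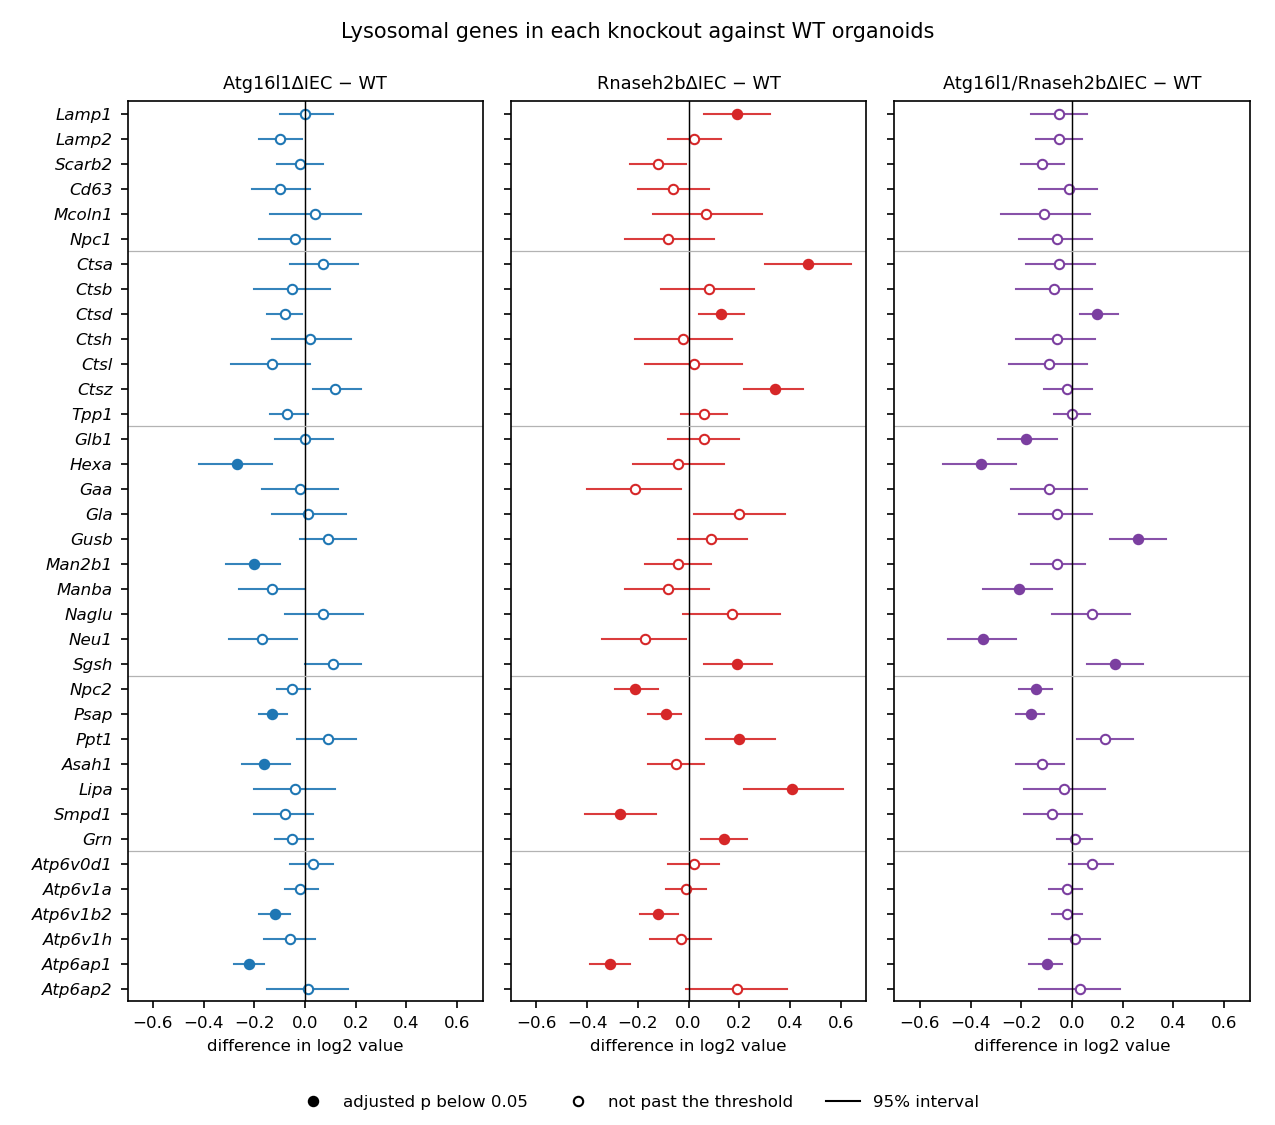
Difference in log2 value of each member between each knockout and WT organoids (points) with its 95% interval from limma (lines), filled where the adjusted p was below 0.05. All points lie between -0.36 and 0.47, and filled points lie on both sides of 0 in *Rnaseh2b*ΔIEC and the double knockout but only below 0 in *Atg16l1*ΔIEC.

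Among the cathepsins and peptidases, 3 of 7 genes passed over the 4 genotypes, where 45.8% of all tested genes did. *Ctsa* (chr2:164832873-164841032, +), which encodes protective protein/cathepsin A, the carboxypeptidase that stabilises β-galactosidase and neuraminidase 1 in a complex, had log2 values of 12.42, 12.35, 12.18 and 12.21 in WT and 12.30, 12.23, 12.47 and 12.45 in *Atg16l1*ΔIEC libraries. It reached 12.72 and 12.80 in *Rnaseh2b*ΔIEC and 12.25, 12.34, 12.18 and 12.21 in double knockout libraries. Both *Rnaseh2b*ΔIEC libraries were above all others, while the remaining 3 genotypes overlapped. The difference from WT was 0.47 (SE 0.08, adjusted p = 0.0012) and that of the double knockout from *Rnaseh2b*ΔIEC was -0.51 (SE 0.08, adjusted p = 0.00087). Its interaction was -0.59 (SE 0.10, adjusted p = 0.00085). The 3 calls also passed with the pairs as a block (adjusted p = 0.012, 0.011 and 0.0089). In a limma fit with a lane term, the difference from WT was 0.37 (adjusted p = 0.055) and the interaction -0.44 (adjusted p = 0.071), so neither passed. That of the double knockout from *Rnaseh2b*ΔIEC was -0.47 (adjusted p = 0.0033). In each genotype with XY and XX libraries, the XY pair was the higher in *Ctsa*, by 0.19 in WT, 0.19 in *Atg16l1*ΔIEC and 0.10 in the double knockout, and against the XY pair of WT alone the *Rnaseh2b*ΔIEC pair was higher by 0.37.

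*Ctsz* (chr2:174427493-174439039, -) behaved likewise. It had values of 12.93, 12.89, 12.73 and 12.77 in WT, 12.94, 12.96, 12.98 and 12.93 in *Atg16l1*ΔIEC, 13.14 and 13.19 in *Rnaseh2b*ΔIEC and 12.76, 12.89, 12.77 and 12.82 in double knockout libraries. The *Rnaseh2b*ΔIEC libraries were the highest of all, and those of the double knockout lay below every *Atg16l1*ΔIEC library. *Ctsz* was higher in *Rnaseh2b*ΔIEC than in WT by 0.34 (SE 0.05, adjusted p = 0.00087) and lower in the double knockout than in *Rnaseh2b*ΔIEC, with a difference of -0.35 (SE 0.05, adjusted p = 0.00087). The interaction was -0.48 (SE 0.07, adjusted p = 0.00032), and with the pairs as a block all 3 passed (adjusted p = 0.024, 0.021 and 0.0098). The smaller difference of the double knockout from *Atg16l1*ΔIEC, -0.14 (SE 0.04, adjusted p = 0.033), did not pass with the pairs as a block (adjusted p = 0.23).

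*Ctsd* (chr7:142375911-142388038, -), the gene of the aspartic protease cathepsin D, had values of 12.35, 12.31, 12.26 and 12.31 in WT and 12.28, 12.26, 12.19 and 12.18 in *Atg16l1*ΔIEC libraries. It had 12.46 and 12.43 in *Rnaseh2b*ΔIEC and 12.41, 12.47, 12.39 and 12.38 in double knockout libraries. All 6 libraries with *Rnaseh2b* deletion were thus above all 8 libraries without it. The double knockout differed from *Atg16l1*ΔIEC by 0.19 (SE 0.03, adjusted p = 0.0021, and 0.047 with the pairs as a block) and from WT by 0.10 (SE 0.03, adjusted p = 0.047, and 0.31 with the block). *Rnaseh2b*ΔIEC differed from WT by 0.13. The interaction, 0.06 with a 95% interval of -0.06 to 0.17, did not pass. *Ctsb*, the other of the 2 most abundant cathepsins beside *Ctsz*, had means that differed by no more than 0.15 in size in any of the 5 pairwise comparisons, none of which passed, and *Ctsh*, *Ctsl* and *Tpp1* (tripeptidyl peptidase 1) were called in no comparison.

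**Figure D3:**
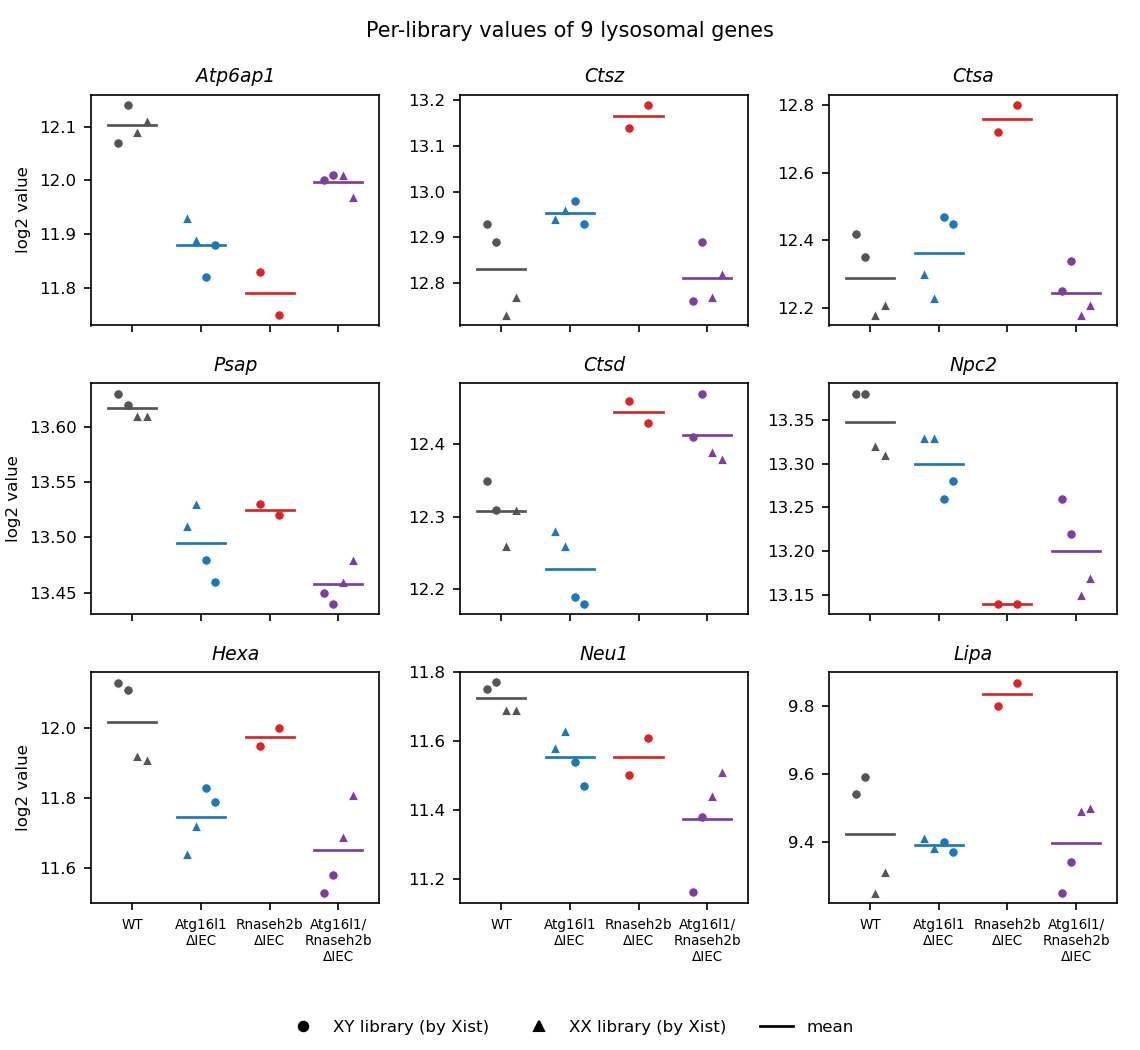
Log2 values in each library of the 9 members with the smallest p over the 4 genotypes, with circles for XY and triangles for XX libraries by *Xist* and lines for the means. The 2 *Rnaseh2b*ΔIEC libraries are above all others for *Ctsa*, *Ctsz* and *Lipa*, and *Psap* is lower in each of the 10 knockout libraries than in every WT library.

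Among the membrane proteins *Lamp1* (chr8:13159161-13175338, +) alone passed over the 4 genotypes, 1 of 6, where 45.8% of all tested genes did. It had values of 14.22, 14.22, 14.12 and 14.07 in WT, 14.12 to 14.19 in *Atg16l1*ΔIEC, 14.35 in both *Rnaseh2b*ΔIEC and 14.17, 14.21, 14.03 and 14.02 in double knockout libraries. The *Rnaseh2b*ΔIEC libraries were again the highest. The difference from WT was 0.19, that of the double knockout from *Rnaseh2b*ΔIEC -0.24 and the interaction -0.25. With the pairs as a block none of the 3 passed (adjusted p = 0.15, 0.077 and 0.12), and in a fit with a lane term the difference from WT was 0.02 and the interaction 0.01. *Lamp2*, the X-linked paralogue, differed from WT by 0.02 in *Rnaseh2b*ΔIEC (95% interval -0.08 to 0.13), -0.10 in *Atg16l1*ΔIEC (-0.18 to -0.01) and -0.05 in the double knockout (-0.14 to 0.04), and passed in none. *Mcoln1* likewise passed in none, with differences from WT of 0.07 in *Rnaseh2b*ΔIEC (95% interval -0.14 to 0.29), 0.04 in *Atg16l1*ΔIEC (-0.14 to 0.22) and -0.11 in the double knockout (-0.28 to 0.07). *Scarb2* (LIMP-2, a receptor that carries an enzyme to the lysosome), *Cd63* and *Npc1* were not called in any comparison.

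Relative to WT, the glycosidases held the largest differences of the double knockout. Over the genotypes 6 of 10 passed, where 45.8% of all tested genes did. *Hexa* (chr9:59539540-59565109, +), the α-subunit of β-hexosaminidase, had values of 12.13, 12.11, 11.92 and 11.91 in WT and 11.64, 11.72, 11.83 and 11.79 in *Atg16l1*ΔIEC libraries. It had 11.95 and 12 in *Rnaseh2b*ΔIEC and 11.53, 11.58, 11.69 and 11.81 in double knockout libraries. No library with *Atg16l1* deletion reached any library without it. *Hexa* fell in *Atg16l1*ΔIEC by 0.27 (SE 0.07, adjusted p = 0.013) and in the double knockout by 0.36 (SE 0.07, adjusted p = 0.0053) relative to WT, and differed by -0.32 between the double knockout and *Rnaseh2b*ΔIEC. Under the pair block these had adjusted p = 0.091, 0.057 and 0.072. Within lane 1 the fall in the double knockout was -0.27 (adjusted p = 0.07), and with a lane term the difference in *Atg16l1*ΔIEC was -0.08 (adjusted p = 0.62). The fall from WT was present in both pairs, -0.57 in the XY and -0.16 in the XX pair of the double knockout and -0.31 and -0.23 in *Atg16l1*ΔIEC.

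*Neu1* (chr17:34931253-34935953, +), encoding neuraminidase 1, had values of 11.75, 11.77, 11.69 and 11.69 in WT, 11.58, 11.63, 11.54 and 11.47 in *Atg16l1*ΔIEC, 11.50 and 11.61 in *Rnaseh2b*ΔIEC and 11.16, 11.38, 11.44 and 11.51 in double knockout libraries. All 10 knockout libraries were below all WT libraries. The difference passed for the double knockout, at -0.35 (SE 0.06, adjusted p = 0.0041, and 0.090 with the pairs as a block), and within lane 1 it was -0.25 (adjusted p = 0.011). The differences in *Atg16l1*ΔIEC and *Rnaseh2b*ΔIEC did not pass. Between the double knockout and *Atg16l1*ΔIEC it was -0.18 (SE 0.06, adjusted p = 0.047), with overlapping libraries.

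*Gusb* (β-glucuronidase; chr5:129989011-130003049, -) was the member that rose most in the double knockout. Its values were 10.63, 10.65, 10.72 and 10.72 in WT and 11.04, 10.95, 10.84 and 10.89 in double knockout libraries, which did not overlap. The difference was 0.26 (SE 0.05, adjusted p = 0.0072, and 0.087 with the pairs as a block). It was 0.17 (SE 0.05, adjusted p = 0.029) relative to *Atg16l1*ΔIEC. *Sgsh* rose in the double knockout by 0.17 (SE 0.05, adjusted p = 0.037) and in *Rnaseh2b*ΔIEC by 0.19. *Man2b1*, the lysosomal α-mannosidase, fell in *Atg16l1*ΔIEC from 11.66 to 11.77 in WT to 11.46 to 11.57, by 0.20 (SE 0.05, adjusted p = 0.011), and was higher in the double knockout than in *Atg16l1*ΔIEC by 0.15 (SE 0.05, adjusted p = 0.043). *Manba* (β-mannosidase) fell in the double knockout by 0.21 (SE 0.06, adjusted p = 0.034), with overlapping libraries. *Glb1* (β-galactosidase) fell in the double knockout by 0.18 relative to WT, by 0.17 (SE 0.05, adjusted p = 0.033) relative to *Atg16l1*ΔIEC and by 0.23 relative to *Rnaseh2b*ΔIEC. The differences of *Sgsh*, *Man2b1*, *Manba* and *Glb1* did not pass with the pairs as a block (adjusted p from 0.11 to 0.34). *Gla* (α-galactosidase A, X-linked) differed by -0.26 between the double knockout and *Rnaseh2b*ΔIEC, and *Gaa* (acid α-glucosidase) and *Naglu* were called in no comparison.

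Of the lipid hydrolases, activators and carriers, 6 of 7 passed over the genotypes, where 45.8% of all tested genes did. With the pairs as a block only *Lipa* of them passed over the genotypes. *Lipa* (chr19:34492318-34527474, -) had values of 9.54, 9.59, 9.25 and 9.31 in WT, 9.41, 9.38, 9.40 and 9.37 in *Atg16l1*ΔIEC, 9.80 and 9.87 in *Rnaseh2b*ΔIEC and 9.25, 9.34, 9.49 and 9.50 in double knockout libraries. The *Rnaseh2b*ΔIEC pair was the highest, and in WT the XY pair was above the XX pair by 0.28. *Lipa* rose in *Rnaseh2b*ΔIEC by 0.41 relative to WT (SE 0.09, adjusted p = 0.0057, and 0.038 with the pairs as a block) and was lower in the double knockout than in *Rnaseh2b*ΔIEC by 0.44 (SE 0.09, adjusted p = 0.0045, and 0.030 with the block). The interaction was -0.40 (SE 0.12, adjusted p = 0.018, and 0.073 with the block). Against the XY pair of WT alone the difference of *Rnaseh2b*ΔIEC was 0.27, and without *Rnaseh2b*ΔIEC library 2 these 3 calls were lost.

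*Psap* (chr10:60277627-60302597, +) varied little between libraries of a genotype. It had values of 13.63, 13.62, 13.61 and 13.61 in WT, 13.51, 13.53, 13.48 and 13.46 in *Atg16l1*ΔIEC, 13.53 and 13.52 in *Rnaseh2b*ΔIEC and 13.45, 13.44, 13.46 and 13.48 in double knockout libraries. No knockout library reached WT. It fell by 0.13 in *Atg16l1*ΔIEC, 0.09 in *Rnaseh2b*ΔIEC and 0.16 in the double knockout. None of these passed with the pairs as a block (adjusted p = 0.11, 0.28 and 0.078).

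*Npc2* (chr12:84754562-84773152, -), the soluble cholesterol carrier that hands cholesterol to NPC1, had values of 13.38, 13.38, 13.32 and 13.31 in WT, 13.33, 13.33, 13.26 and 13.28 in *Atg16l1*ΔIEC, 13.14 in both *Rnaseh2b*ΔIEC and 13.26, 13.22, 13.15 and 13.17 in double knockout libraries. All libraries with *Rnaseh2b* deletion were below all WT libraries. It fell by 0.21 in *Rnaseh2b*ΔIEC (SE 0.04, adjusted p = 0.0026, and 0.041 with the pairs as a block). In the double knockout it fell by 0.14 relative to WT (adjusted p with the block = 0.14) and was lower by 0.10 than in *Atg16l1*ΔIEC.

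*Smpd1* had values of 8.66, 8.64, 8.77 and 8.74 in WT, 8.47 and 8.4 in *Rnaseh2b*ΔIEC and 8.57, 8.63, 8.67 and 8.63 in double knockout libraries, and the *Rnaseh2b*ΔIEC libraries were the lowest of all 14. It fell by 0.27 in *Rnaseh2b*ΔIEC relative to WT (SE 0.06, adjusted p = 0.0091) and was higher by 0.19 in the double knockout than in *Rnaseh2b*ΔIEC (SE 0.06, adjusted p = 0.045). The interaction was 0.27 (SE 0.08, adjusted p = 0.022). None of the 3 passed with the pairs as a block (adjusted p = 0.14, 0.30 and 0.19). *Ppt1* (palmitoyl-protein thioesterase 1) and *Grn* (progranulin) rose in *Rnaseh2b*ΔIEC by 0.20 and 0.14, *Grn* was lower by 0.13 in the double knockout than in *Rnaseh2b*ΔIEC, and *Asah1* (acid ceramidase) fell in *Atg16l1*ΔIEC by 0.16.

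Of the V-ATPase genes 2 of 6 passed over the 4 genotypes, where 45.8% of all tested genes did. *Atp6ap1* (chrX:74297097-74304721, +), which encodes the accessory protein Ac45 that takes part in assembly and sorting of the proton pump, had the smallest p of all members over the 4 genotypes (adjusted p = 0.00016, and 0.018 with the pairs as a block). Its values were 12.07, 12.14, 12.09 and 12.11 in WT, 11.93, 11.89, 11.82 and 11.88 in *Atg16l1*ΔIEC, 11.83 and 11.75 in *Rnaseh2b*ΔIEC and 12, 12.01, 12.01 and 11.97 in double knockout libraries. Each genotype except *Rnaseh2b*ΔIEC and *Atg16l1*ΔIEC, which overlapped, was separate from the others, and the double knockout lay between WT and both single knockouts. *Atp6ap1* fell by 0.31 in *Rnaseh2b*ΔIEC (SE 0.04, adjusted p = 0.00011), by 0.22 in *Atg16l1*ΔIEC (SE 0.03, adjusted p = 0.00030) and by 0.10 in the double knockout relative to WT. It was higher in the double knockout than in *Rnaseh2b*ΔIEC by 0.20 (SE 0.04, adjusted p = 0.0018) and than in *Atg16l1*ΔIEC by 0.12. The interaction was 0.43 (SE 0.05, adjusted p = 4.7e-05). With the pairs as a block the falls in both single knockouts (adjusted p = 0.012 and 0.031) and the interaction (0.0056) passed, and the other 3 did not (0.34, 0.072 and 0.21). A lane term left the interaction at 0.45. Although the gene is X-linked, the XY and XX pairs differed by 0.01 in WT, -0.06 in *Atg16l1*ΔIEC and 0.01 in the double knockout.

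*Atp6v1b2*, a subunit of the cytosolic catalytic sector, fell by 0.12 in both *Rnaseh2b*ΔIEC and *Atg16l1*ΔIEC relative to WT and was higher by 0.10 in the double knockout than in *Atg16l1*ΔIEC. Its libraries ranged from 11.91 to 12 in WT, 11.78 to 11.88 in *Atg16l1*ΔIEC, 11.82 to 11.83 in *Rnaseh2b*ΔIEC and 11.90 to 11.94 in the double knockout. The interaction was 0.22 (SE 0.05, adjusted p = 0.0032, and 0.063 with the pairs as a block). *Atp6v1a*, the catalytic subunit, had the largest p of all members over the genotypes (adjusted p = 0.87), with all 14 libraries between 11.81 and 11.93. *Atp6v0d1*, *Atp6v1h* and *Atp6ap2* (the prorenin receptor) were called in no comparison. Of the 15 members called in no comparison, 8 passed in at least 1 comparison in the fit with a lane term. *Ctsh* and *Atp6v1h* did so in 5 comparisons each, *Mcoln1* and *Gaa* in 3, *Atp6ap2* in 2 and *Scarb2*, *Ctsb* and *Atp6v0d1* in 1. In the fit with a lane term, 11.1% to 31.1% of all tested genes passed, depending on the comparison. The share of all genes that passed in at least 1 comparison was not computed, so the count is not a result particular to the members.

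Some members moved in opposite directions in the pairs of a genotype. In the XY pair of the double knockout, *Ctsb*, *Ctsh*, *Ctsl*, *Lipa* and *Gla* were lower than in the XY pair of WT, by -0.29, -0.28, -0.31, -0.27 and -0.25. In the XX pair they were higher than in WT, by 0.15, 0.15, 0.13, 0.21 and 0.12. Over the members, sorted by sign alone, 13 were lower and 5 higher in both pairs of the double knockout relative to WT, and 18 were mixed. Some of the mixed differences were small, such as -0.01 in the XY and 0.01 in the XX pair for *Tpp1* and -0.09 and 0.00 for *Ctsa*. For *Atg16l1*ΔIEC, 15 were lower and 5 higher in both pairs, and 16 differed in direction. The same split over all tested genes was not computed, so these counts do not set the members apart from genes in general. All 10 members called in the double knockout and all 6 called in *Atg16l1*ΔIEC against WT differed in the same direction in both pairs. They were called on these same libraries, which favours such agreement, so it is not a separate test. In the double knockout the pair, the sex and the lane change together and cannot be told apart, so the lane covariate rests on the difference between these 2 pairs.

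**Figure D4:**
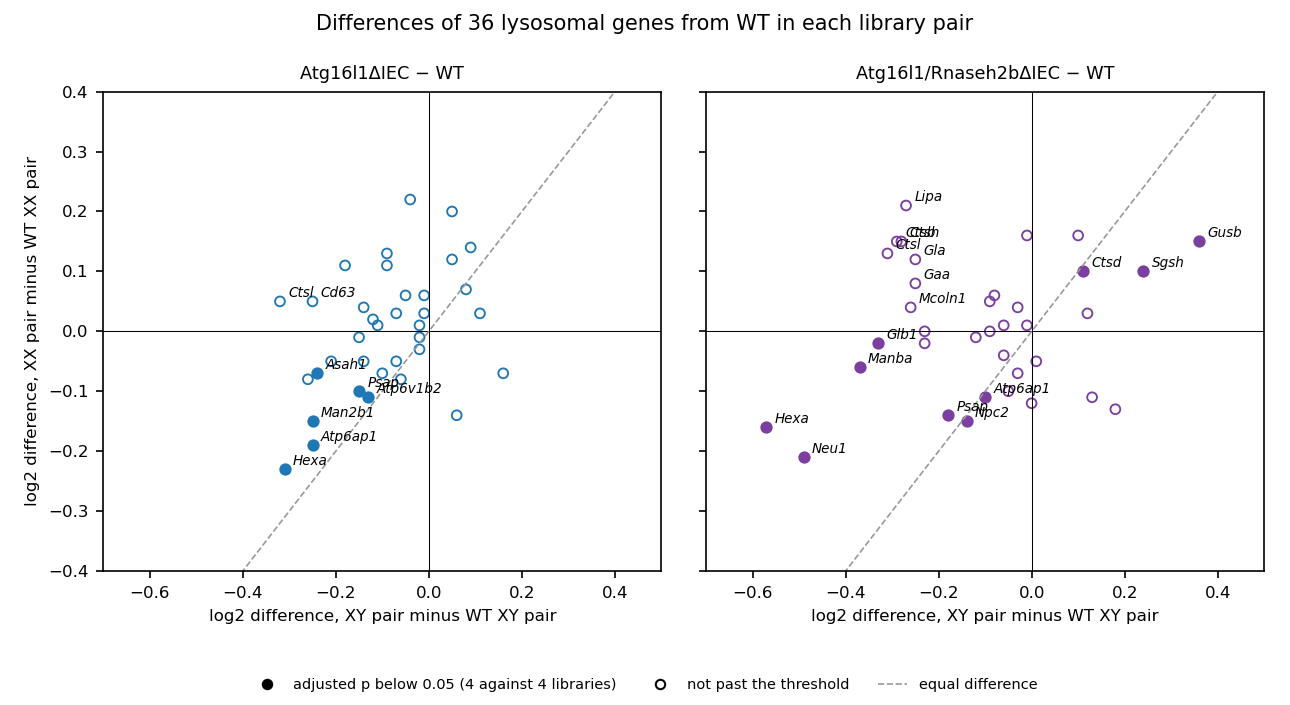
Difference in mean log2 value between the XY pairs of a knockout and of WT (horizontal axis) and between their XX pairs (vertical axis) for the 36 members, filled where the comparison of all 4 against 4 libraries passed. In the double knockout the filled points lie in the lower left and upper right, and *Lipa*, *Ctsb*, *Ctsh*, *Ctsl*, *Gla*, *Gaa* and *Mcoln1* lie in the upper left, lower in the XY pair and higher in the XX pair.

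Epithelial lineage markers moved between the libraries as well. The log2 of the summed level of 10 enterocyte markers was 16.88 to 17.50 in WT, 16.96 to 17.73 in *Atg16l1*ΔIEC, 17.98 and 18.12 in *Rnaseh2b*ΔIEC and 16.70 to 17.17 in double knockout libraries. In *Rnaseh2b*ΔIEC 9 of 10 of these markers rose relative to WT (median difference 1.24), and 9 of 10 were lower in the double knockout than in *Rnaseh2b*ΔIEC (median -1.12). *Ctsa*, *Ctsz*, *Lipa* and *Lamp1* were highest in the same 2 libraries. The XY pair had the higher enterocyte sum in WT (by 0.51), *Atg16l1*ΔIEC (by 0.58) and the double knockout (by 0.27). The XY pair was also the higher in *Ctsa* in these genotypes, but not in *Lipa*, where it differed from the XX pair by 0.28, -0.01 and -0.20, and *Ctsz* differed by 0.16, 0.01 and 0.02. In bulk RNA, a change in the share of a cell type and a change in RNA per cell cannot be told apart, and the part of the enterocyte markers in these results was not tested.

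Paneth cell markers rose in the double knockout, 4 of 6 relative to WT, with summed levels of 15.45 to 15.86 against 14.96 to 15.08. In *Atg16l1*ΔIEC all 6 stem cell markers and 5 of 7 goblet cell markers fell, with summed levels of 14.72 to 15.01 for stem cells against 15.32 to 15.45 in WT and 15.44 to 15.75 for goblet cells against 15.92 to 16.42. The falls of *Hexa*, *Psap* and *Atp6ap1* in that genotype stand beside these, and the part of the markers in them was not tested. Lysosomal genes are also high in macrophages. *Ptprc* (CD45) was at 0.47 to 0.53 and *Adgre1* (F4/80) at -1.97 in every library, where the lowest value of the table was -2.13. Of 8 immune markers 3 reached the level for testing, *Cd68* (5.70 to 6.41), *Itgam* (5.44 to 5.84) and *Lyz2* (3.77 to 3.94), and of these *Lyz2* was higher in the double knockout than in *Rnaseh2b*ΔIEC. The list's summed level was 7 to 7.39 over all libraries, and 0 of 6 stromal markers reached the level for testing.

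**Figure D5:**
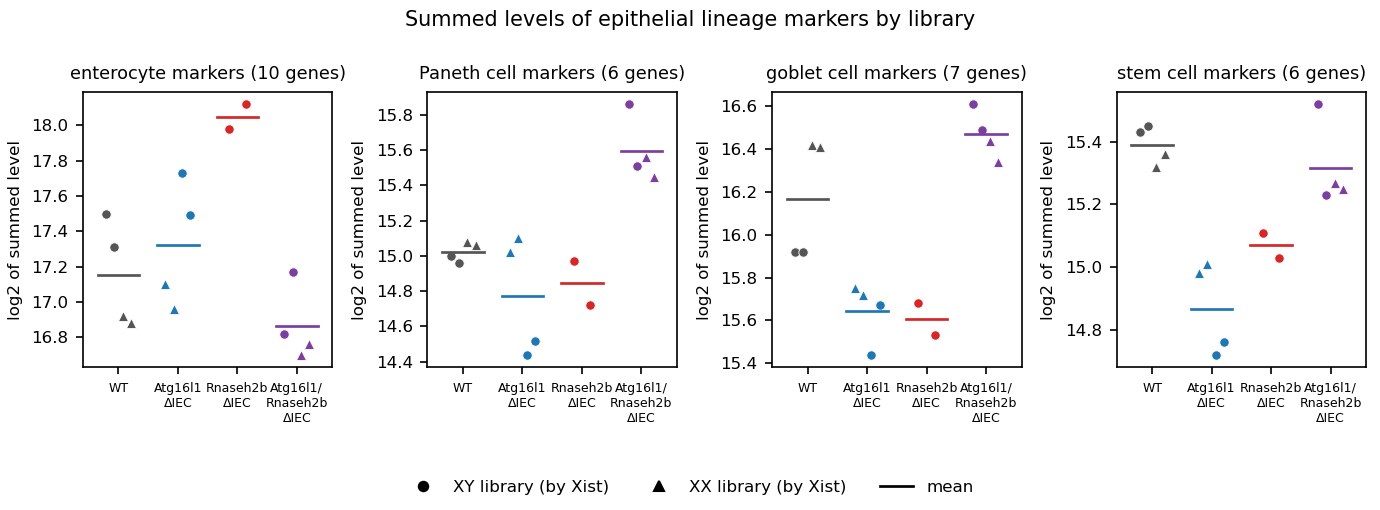
Log2 of the summed level of enterocyte, Paneth cell, goblet cell and stem cell markers in each library (circles XY, triangles XX) with the mean of each genotype. The *Rnaseh2b*ΔIEC libraries are the highest for enterocyte markers, the double knockout for Paneth cell markers, and *Atg16l1*ΔIEC the lowest for stem cell markers.

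Other genes of the lysosomal system also moved in both directions. Relative to WT, 14.4% of all tested genes rose and 12.3% fell in *Rnaseh2b*ΔIEC. The shares were 8.72% and 10.4% in *Atg16l1*ΔIEC and 8.1% and 8.01% in the double knockout. Of 28 other lysosomal hydrolases and cofactors, 3 rose and 4 fell in *Rnaseh2b*ΔIEC, 3 rose and 1 fell in *Atg16l1*ΔIEC, and 2 rose and 6 fell in the double knockout relative to WT. Among the genes past the threshold, the largest rises were those of *Naaa* (0.24), *Ctss* (cathepsin S, 0.32) and *Arsb* (arylsulfatase B, 0.61) in that order, which did not pass with the pairs as a block (adjusted p = 0.25, 0.13 and 0.14). The largest fall in *Rnaseh2b*ΔIEC was that of *Ctsc* (cathepsin C, -0.44), which did (0.047). Of 17 other membrane proteins, 3 rose and 2 fell, 3 rose and 3 fell, and 0 rose and 3 fell, with *Abcb9*, a lysosomal peptide transporter, rising by 0.46 and 0.34 in the single knockouts and *Slc17a5* (sialin) falling by 0.40 in the double knockout. *Slc17a5* passed also with the pairs as a block (adjusted p = 0.028), and *Abcb9* did not (0.052 and 0.10).

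Of 10 further V-ATPase subunits, 4 rose and 1 fell in *Rnaseh2b*ΔIEC, 0 rose and 1 fell in *Atg16l1*ΔIEC and 0 rose and 2 fell in the double knockout. The shares over all genes in these comparisons are those given above. *Atp6v0a2* rose by 0.35 in *Rnaseh2b*ΔIEC (adjusted p with the pairs as a block = 0.013), while *Atp6v0b*, a proteolipid subunit of the membrane sector, fell in all 3 knockouts, by 0.13, 0.18 and 0.13, none of which passed with the pairs as a block (adjusted p = 0.28, 0.089 and 0.27 in *Rnaseh2b*ΔIEC, *Atg16l1*ΔIEC and the double knockout). Of 9 genes for sorting of lysosomal enzymes, 1 rose in *Rnaseh2b*ΔIEC, 1 fell in *Atg16l1*ΔIEC and 2 rose and 1 fell in the double knockout. They included *Igf2r*, the cation-independent mannose 6-phosphate receptor, at -0.20 in *Atg16l1*ΔIEC, and *Gga2* at -0.50 in the double knockout, both lost under the pair block (adjusted p = 0.14 and 0.17). Of 13 tested MiT/TFE factors and Rag-mTORC1 regulators, 5 rose and 0 fell in *Rnaseh2b*ΔIEC, 2 rose in *Atg16l1*ΔIEC and 1 rose in the double knockout. Over all tested genes 14.4%, 8.72% and 8.1% rose, respectively. *Tfeb* rose by 0.21 in *Rnaseh2b*ΔIEC (adjusted p = 0.013) and its interaction was -0.37 (adjusted p = 0.0019), and neither passed with the pairs as a block (adjusted p = 0.18 and 0.056).

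Exons of 11 members overlap those of another gene in the table, 10 of them only on the opposite strand and *Glb1* on the same strand as *Tmppe*. The study names a stranded library protocol, but the strand setting of the counting is not given in the sources used here. Reads of the neighbour may therefore affect these values. Among the members with the largest differences this concerns *Ctsa* (*Neurl2* and *Pltp*, at mean log2 values of 3.19 and 5.15), *Ctsz* (*Nelfcd*, 10.39) and *Hexa* (*Tmem202*, 2.10).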

How the data were processed

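RNA of 14 organoid libraries was sequenced as single reads, and per the labels and the study's methods cutadapt (trimming), TopHat2 (alignment to GRCm38), HTSeq (counting per gene) and DESeq2 were run by the authors. Versions and the strand setting of the counting are not given in the sources used here. The deposited table holds log2 values, normalized by the authors with a transformation that is not named, and low genes are shrunken in it. Counts and depth are unknown, so no counting error can be given. Median log2 values per library were 9.43 to 9.45. Symbols were found for 99.68% of gene identifiers.

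The 36 members and all gene lists were chosen with earlier results of these data known. Differences were fitted with limma 3.58.1 (R 4.3.3) over all 14 libraries without covariates, with moderated variances and a trend, on 12804 genes with a mean of at least 3.32, and p-values were adjusted by Benjamini-Hochberg over all of them (threshold 0.05). The fit was tested on simulated data in which all libraries were independent. Those data lack the library pairs, so that test says nothing of false calls that the pairs may cause. A member past the threshold was named, the 3 largest rises and falls per comparison with SE and adjusted p, and of the others *Lamp1*, *Lamp2*, *Ctsb*, *Ctsd* and *Mcoln1* by value. The other lists are given as counts with the largest rise and fall, of which some are not reported here. The lane results of members called in no comparison were chosen after their values were seen. Alternatives were other filters, pseudocounts and scalings, lane, replicate and pair terms, and leaving out each library. Sex as a covariate was added after seeing the data. Libraries 1 and 2, and 3 and 4, of a genotype deviated together (r 0.406 to 0.864 in the 6 pairs of the genotypes with 4 libraries), and the block for them had an estimated correlation of 0.645.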

Additional observations from a re-analysis of the deposited data

Results flagged for a closer look

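The effect of *Rnaseh2b* deletion differed between *Atg16l1*-deficient and *Atg16l1*-sufficient organoids, by the interaction test in limma, for 7 of 36 members, 3 upward and 4 downward, where 17% of all tested genes differed upward and 18.1% downward. The log2 differences of the effects were -0.59 for *Ctsa*, -0.48 for *Ctsz*, -0.40 for *Lipa*, -0.25 for *Lamp1*, 0.43 for *Atp6ap1*, 0.27 for *Smpd1* and 0.22 for *Atp6v1b2*. Among these, *Ctsa*, *Ctsz* and *Atp6ap1* also passed with the library pairs as a block. In the limma fit with a lane term, the interaction of *Ctsa* did not pass (adjusted p = 0.071), and those of *Ctsz* and *Atp6ap1* did (adjusted p = 0.02 and 0.0027).

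In WT, *Psap* in library 1 (13.63) stood apart from the other libraries (13.61 to 13.62), with a gap of 0.951 of the group's range. It was the 1 such case among 108 groups of 4 libraries, where chance gives about 5%.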

How the results depend on the processing

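With the library pairs as a block, the called members were 6 over the 4 genotypes, 1 in *Atg16l1*ΔIEC, 5 in *Rnaseh2b*ΔIEC and 0 in the double knockout against WT, 3 and 1 in the double knockout against *Rnaseh2b*ΔIEC and *Atg16l1*ΔIEC, and 3 for the interaction. With pairs averaged, 1 of all 12804 genes passed in *Atg16l1*ΔIEC against WT and 0 in the other comparisons. In that fit all 55 called differences were lost, and the called members were 0 in every comparison. With lane as a covariate, which rests on the double knockout alone, they were 8 in *Rnaseh2b*ΔIEC and 6 in the double knockout against WT, 14 in the double knockout against *Atg16l1*ΔIEC and 11 for the interaction, where 11.7%, 11.1%, 31.1% and 20.1% of all genes passed, and the interaction of *Lamp1* turned to 0.01. Within lane 1, and with only the groups compared, 6 passed in the double knockout against WT, and with only the groups compared 3 passed against *Atg16l1*ΔIEC. The cause of the other changes was not tested.

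Replicate numbers did not pair the samples (r between -0.502 and 0.442 for the same number in other genotypes). The replicate block gave 8 called members in *Rnaseh2b*ΔIEC against WT and 11 for the interaction, and the other counts stayed within 1.5 times. Leaving out 1 library gave 11 to 19 over the 4 genotypes, 5 to 7 in *Atg16l1*ΔIEC, 4 to 13 in *Rnaseh2b*ΔIEC and 5 to 9 in the double knockout against WT, 2 to 10 and 2 to 7 in the double knockout against *Rnaseh2b*ΔIEC and *Atg16l1*ΔIEC, and 4 to 9 for the interaction. Of 55 called differences, 42 were lost with the pair block, 24 with lane, 11 with total scaling, 11 with the replicate block, 8 without a filter, 7 with sex, 2 with median scaling and 0 with the stricter filter or either pseudocount. The depth is unknown, and *Rnaseh2b*ΔIEC rests on 2 libraries.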
